A study of Mus musculus with 3 samples.

Results

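The 10 genes described here are classical osteoclast genes, which RANKL induces when macrophage precursors become osteoclasts. They are the transcription factor gene Nfatc1, the cell fusion genes Dcstamp, Ocstamp and Atp6v0d2, the bone resorption enzyme genes Acp5, Ctsk and Mmp9, and the surface receptor genes Calcr, Oscar and Itgb3. The rule takes them by symbol, with no threshold on a measured value, from 36799 genes and transcripts with a probe on the array. All 10 had a probe, with 14 of the 55681 distinct probes between them. Of these 10 genes, 7 had a probe well above background in all 3 control or all 3 RANKL channels and were tested, among 21728 genes and transcripts tested in all. Dcstamp, Atp6v0d2 and Calcr were not.

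RNA came from primary cultures of mammary tumor cells of 3 tumor-bearing MMTV-PyMT mice, in which the mouse mammary tumor virus promoter drives the polyoma middle T oncogene. They are called tumors 1, 2 and 3. Each tumor gave a culture that received RANKL for 24 h and a control culture without added RANKL. Both RNAs, in Cy3 and Cy5, shared 1 Agilent mouse expression array. The methods describe acinar cultures on Matrigel low in growth factors, with RANKL added 24 h after plating. All cultures grew with serum, insulin, epidermal growth factor and cholera toxin. The labels give the RANKL concentration as 1000 µg/ml and the methods as 1 µg/ml. RANKL RNA carried Cy3 in tumors 1 and 3 and Cy5 in tumor 2, so that a difference between the dyes and a difference between tumor 2 and the other tumors cannot be told apart. All 3 arrays came from the same slide and scan, and their number limits the precision of every value.

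RANKL is a cytokine of the tumor necrosis factor family, and RANK is its receptor. In macrophage precursors, RANK acts through TRAF6, NF-kB and the AP-1 protein c-Fos, and together with calcium signals from receptors that carry immunoreceptor tyrosine-based activation motifs this leads to the expression and self-amplification of NFATc1. NFATc1 then drives the genes for fusion and bone resorption, whereas in mammary epithelium RANK is known for its action downstream of progesterone, on the expansion of progenitor cells.

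By limma, 0 of the 7 osteoclast genes tested passed an adjusted p of 0.05, where 6 of 21728 genes and transcripts did (0.0276%). At an unadjusted p under 0.05 there were 2 of 7, Ocstamp and Itgb3, both lower with RANKL, against 1556 of all genes tested (7.16%). Over the 18 alternatives, an unadjusted p under 0.05 was found in 16 for Ocstamp and in 8 for Itgb3. A rank product put 0 of the 7 past the adjusted threshold, against 77 of all genes tested (0.354%), and limma with a term for the dye put 1, Ocstamp, against 300 (1.38%). The median log2 ratio of RANKL over control of the 7 genes was −0.02, and it was −0.00068 over all genes tested. For the 7 genes it was −0.01, −0.01 and 0.00012 in tumors 1, 2 and 3, and over the alternatives it lay between −0.16 with median centering, under which all genes tested had a median of −0.11, and 0.06 without tumor 1, so that it has no settled sign. The ratio was below 0 in all 3 tumors for 2 of the 7 genes (13.3% of all genes tested) and above 0 in all 3 for another 2, Nfatc1 and Mmp9 (14.2% of all genes tested). These counts go by sign alone, and in tumor 3 Nfatc1 and Mmp9 were only 0.00012 and 0.0039 above 0. A gene that misses the threshold is not shown to be the same in both cultures, so the intervals of the differences are given below.

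**Figure D1:**
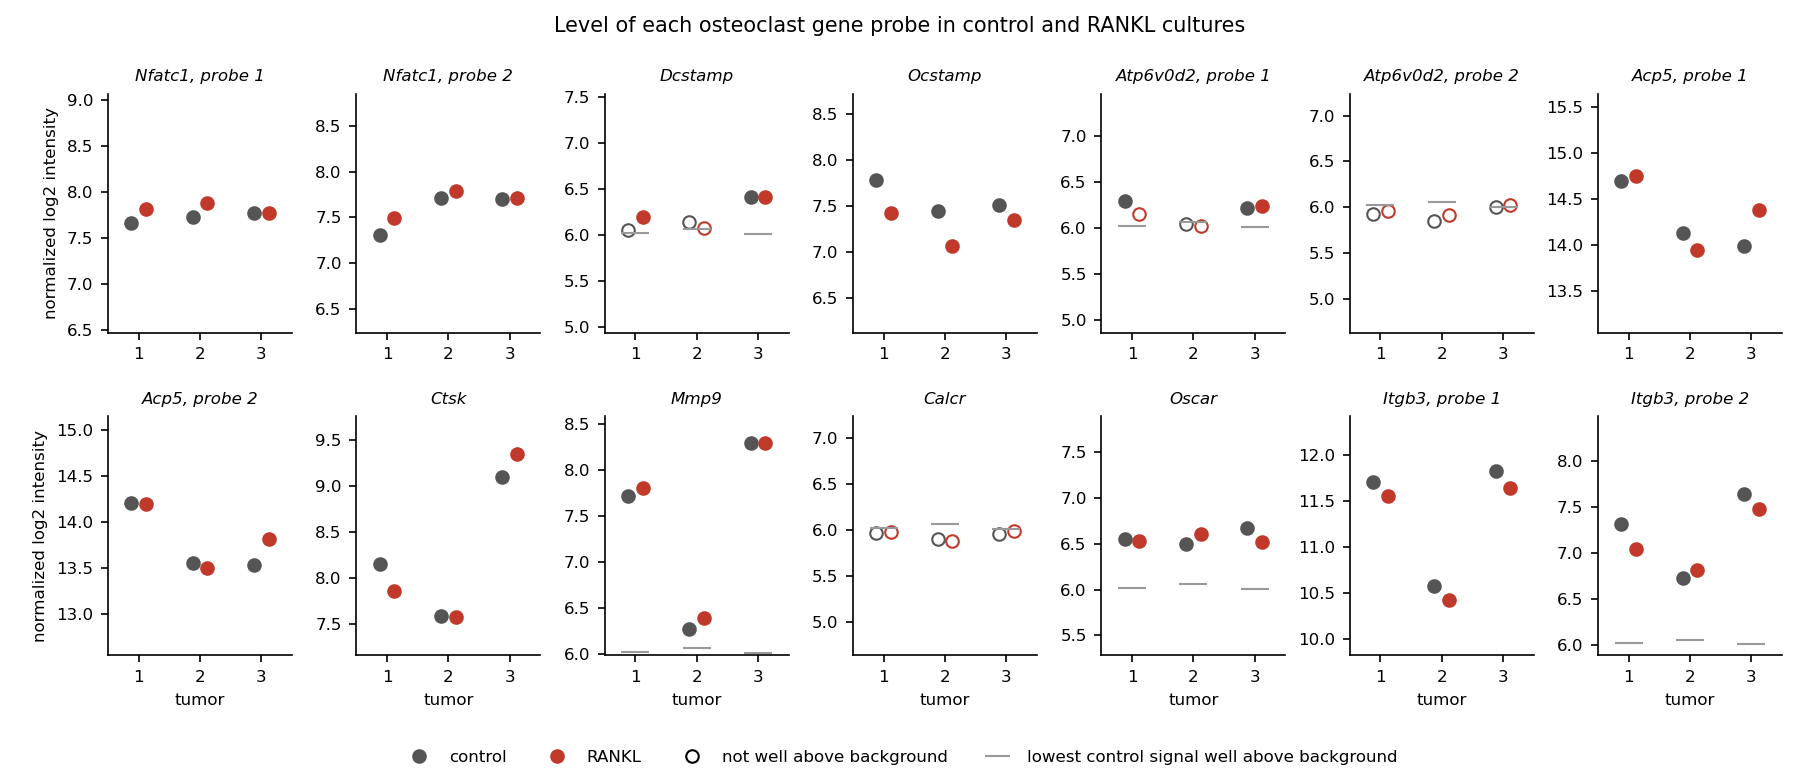
Normalized log2 intensity (y axis, spanning at least 2.6 log2 units and placed separately in each panel) of the 14 probes of the 10 genes in tumors 1, 2 and 3 (x axis), with control in grey and RANKL in red. Open circles were not well above background, and the grey dash is the lowest control signal of any probe well above background where it falls within the panel. All 6 channels of Calcr are open circles, whereas Mmp9, Ctsk and Itgb3 are lowest in both cultures of tumor 2.

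Nfatc1 encodes the master transcription factor of osteoclast formation. The spot of the probe used for the gene had a control intensity of 248, 137 and 289 in tumors 1, 2 and 3, over a local background of 68, 38 and 74. With RANKL it was 147, 298 and 155, over 34, 71 and 40. Raw intensities and backgrounds were higher in Cy5 than in Cy3 on every array, so that raw values compare only within a dye, and normalization removes this difference. The normalized log2 intensity of Nfatc1 was then 7.67, 7.73 and 7.78 in the controls (mean 7.73 ± 0.06, SD, n = 3 tumors). With RANKL it was 7.82, 7.88 and 7.78 (mean 7.83 ± 0.05). Treated cultures were higher in tumors 1 and 2, by a log2 ratio of 0.15 and 0.14, and level with the control in tumor 3, where the ratio was 0.00012. The mean log2 ratio was 0.10 (SE 0.07, 95% interval −0.06 to 0.26, adjusted p = 0.828), or 1.07-fold with an interval from 0.958-fold to 1.20-fold. Over the 18 alternatives Nfatc1 lay between 0.0072 with median centering, where it was 0.12 above the median of all genes, and 0.18 with processed signals. A second probe of Nfatc1 was well above background in all 6 channels and gave log2 ratios of 0.19, 0.07 and 0.0056. Both probes thus had their smallest ratio in tumor 3, and their means were 0.10 and 0.09. Between tumors, the mean of both channels spanned 0.06 log2 units for the probe used, or 0.11 without normalization between arrays, and 0.35 for the second probe, so that the probes differed in how far Nfatc1 varied.

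Of the fusion genes, Ocstamp had the largest difference among all 7 genes tested. It encodes a multipass membrane protein needed for the fusion of osteoclast precursors. Its control intensity was 267.5, 107 and 229.5 over a background of 70, 32 and 71, and with RANKL it was 104, 164 and 103.5 over 31, 71 and 33. Normalized, the control level was 7.78, 7.45 and 7.51 (mean 7.58 ± 0.18, SD, n = 3) and the RANKL level 7.42, 7.06 and 7.34 (mean 7.28 ± 0.19). The treated culture was the lower one within every tumor, and the highest treated level, in tumor 1, was just under the lowest control level, in tumor 2. The log2 ratios were −0.36, −0.38 and −0.17, and the array with RANKL in Cy5 gave the lowest. Their mean was −0.30 (SE 0.07, 95% interval −0.47 to −0.13), or 0.811-fold, and the adjusted p over all genes tested was 0.368. With a dye term, which leaves 1 residual degree of freedom, the log2 ratio was −0.32 and the adjusted p 0.0160, within a range from 0.0160 to 1.00 over the alternatives. Ocstamp was lower with RANKL under all 18 alternatives, with log2 ratios between −0.44 and −0.26. It has 1 probe and 1 spot on the array, so no other probe bears on it.

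Dcstamp, which encodes the related fusion protein DC-STAMP, was near background. Its control intensity of 77, 36 and 104.5 stood over 72, 37 and 76, and its RANKL intensity of 37, 76 and 49 over 34, 71 and 40. It was well above background in the control of tumor 3 alone, and with RANKL in tumors 1 and 3. Tumor 3 was thus the only tumor in which both cultures gave a measurable Dcstamp signal, and there the normalized levels were 6.41 and 6.41. Atp6v0d2, the osteoclast isoform of the d subunit of the vacuolar proton pump, which also acts in fusion, has 2 probes. One was well above background in 0 of 6 channels. The other had control intensities of 85, 28 and 89 over 66, 33 and 75, with RANKL intensities of 28, 71 and 39 over 28, 69 and 37. It was well above background in 3 of 6 channels, the controls of tumors 1 and 3 and the treated culture of tumor 3. No fold is given for Dcstamp and Atp6v0d2, because neither condition was measured on all 3 arrays.

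The resorption enzymes were measured in all 6 channels. Acp5 encodes tartrate-resistant acid phosphatase, Ctsk the collagen-degrading protease cathepsin K, and Mmp9 a gelatinase, and both Acp5 and Ctsk are textbook targets of NFATc1. For this reason the 250 bases before the transcription start are shown for Ctsk and for the most downstream of 3 annotated starts of Acp5, from RefSeq on GRCm38.p6. Capitals mark the letters GGAAA, the core of NFAT sites, or TTTCC where they lie on the other strand. The Acp5 stretch (chr9:22130599-22130848, minus strand) holds 2 such cores and the Ctsk stretch (chr3:95498960-95499209, plus strand) holds 0.
Acp5: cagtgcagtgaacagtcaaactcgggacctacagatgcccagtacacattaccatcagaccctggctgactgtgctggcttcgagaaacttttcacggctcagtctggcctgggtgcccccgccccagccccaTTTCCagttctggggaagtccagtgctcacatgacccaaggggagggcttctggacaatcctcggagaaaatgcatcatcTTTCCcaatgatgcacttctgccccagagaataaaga
Ctsk: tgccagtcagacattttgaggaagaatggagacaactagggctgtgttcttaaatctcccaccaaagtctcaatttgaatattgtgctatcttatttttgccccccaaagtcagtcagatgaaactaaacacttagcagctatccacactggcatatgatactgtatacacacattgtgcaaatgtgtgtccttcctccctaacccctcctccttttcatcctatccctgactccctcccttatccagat

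Searched on both strands, GGAAA stood in 55.6% of the 32851 promoters of the table over the same 250 bases. Among the osteoclast genes, 4 had an entry that is shown or counted here, with 7 starts, and 5 of the 7 starts held GGAAA. The AP-1 letters TGANTCA stood in 0 of the 7 and in 6.75% of all promoters, and a loose form of the NF-kB site (3 G, any 5 bases and 2 C) in 3 of the 7 and in 45.8%. A match of letters is no evidence of binding, and sites of these factors can lie outside this window.

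Acp5 was strongly expressed in every culture. Its control intensity was 36828.5, 12033.5 and 24277 in tumors 1, 2 and 3, over a background of 71, 39 and 78, and with RANKL it was 17963, 22849 and 16395.5 over 32, 76 and 41. No spot was saturated. Normalized, the control level was 14.70, 14.13 and 14.00 (mean 14.28 ± 0.37, SD, n = 3) and the RANKL level 14.75, 13.95 and 14.38 (mean 14.36 ± 0.40). Tumor 1 was the highest in both cultures. The ratios went in different directions. They were 0.05, −0.19 and 0.39, and their mean was 0.08 (SE 0.10, 95% interval −0.15 to 0.32, adjusted p = 0.908). As a fold the interval ran from 0.900 to 1.25. The SD of the Acp5 ratio over tumors was 0.29, more than in 95.3% of the genes tested. A second Acp5 probe gave −0.02, −0.06 and 0.28, so that both probes were highest in tumor 3 and below 0 in tumor 2, and they differed in sign in tumor 1. Without tumor 3 the mean log2 ratio of Acp5 was −0.07, and without tumor 2, the array with RANKL in Cy5, it was 0.22 (adjusted p = 0.155).

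Ctsk differed mainly between tumors. Its control intensity was 354, 120 and 757 over 67, 37 and 74, and with RANKL it was 148, 239.5 and 492 over 35, 69 and 38. The normalized control level was 8.15, 7.58 and 9.09 (mean 8.28 ± 0.76, SD, n = 3) and the RANKL level 7.86, 7.57 and 9.34 (mean 8.26 ± 0.95). Both cultures of tumor 3 lay above all cultures of the other tumors, and both cultures of tumor 2 were the lowest. Between tumors the mean of both channels spanned 3.12-fold, a range larger than in 97.2% of the genes well above background in all channels. The log2 ratio of RANKL over control was −0.29, −0.01 and 0.25, with a mean of −0.02 (SE 0.10, 95% interval −0.25 to 0.21, adjusted p = 0.981). These 3 ratios have 1 value on each side of 0 and 1 next to it, and without tumor 1 the mean was 0.12.

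The Mmp9 probe is printed as 10 spots on each array. The median control intensity over these spots was 263, 38.75 and 409.5, over 70.5, 36.5 and 74.5, and with RANKL it was 148.25, 100.25 and 239 over 33.5, 72.5 and 39.5. In tumor 2, 7 of the 10 control spots and 9 of the 10 RANKL spots were well above background, and in tumors 1 and 3 all of them were. The normalized control level was 7.72, 6.27 and 8.29 (mean 7.43 ± 1.04, SD, n = 3) and the RANKL level 7.81, 6.39 and 8.30 (mean 7.50 ± 0.99). Tumor 2 was far below the others in both cultures, and so near background that the offset compresses its distance from them. Tumor 3 was the highest. The mean of both channels spanned 3.90-fold, which is not an exact fold for this reason, and more than in 98.2% of the genes well above background in all channels. By contrast the ratios were close to each other, with 0.08, 0.12 and 0.0039, a mean of 0.07 (SE 0.07, 95% interval −0.09 to 0.23, adjusted p = 0.894) and a fold between 0.941 and 1.17. The background offset compresses this ratio in tumor 2. The mean over tumors was 0.14 with an offset of 10 (adjusted p = 0.829) and 0.23 with processed signals (adjusted p = 0.767). Processed signals have no such offset but differ in other steps too, and the cause of these moves was not tested. The 10 spots show the error of a single spot. Their log2 ratios ranged from −0.08 to 0.27 in tumor 1, from −0.15 to 0.33 in tumor 2 and from −0.31 to 0.19 in tumor 3. This gave an SD between spots of 0.11, 0.14 and 0.15, where the median probe printed 10 times and well above background in both channels had 0.06, 0.06 and 0.07 and the 95th percentile of such probes lay below Mmp9 on every array. Spots are repeats of 1 hybridization and not replicates of the treatment.

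**Figure D2:**
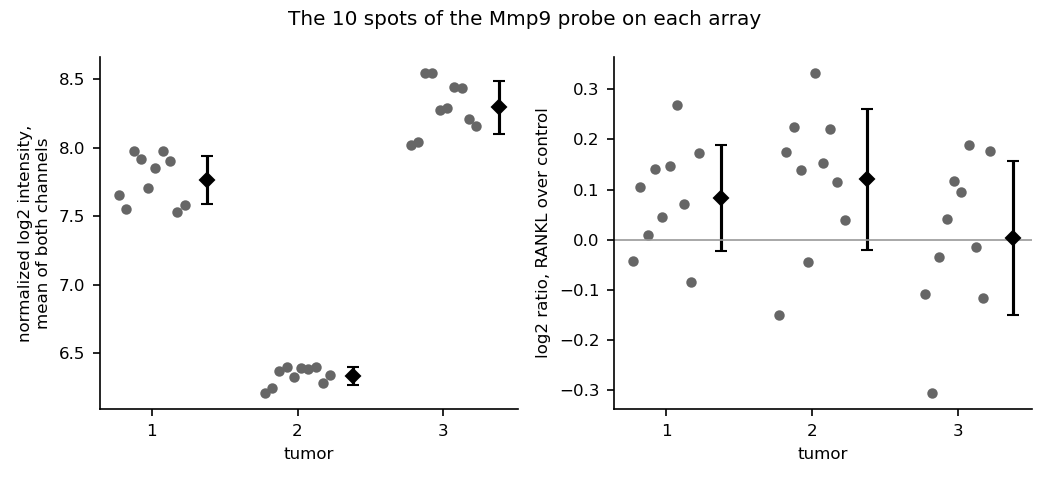
The 10 spots of the Mmp9 probe on the arrays of tumors 1, 2 and 3, with the normalized log2 intensity as the mean of both channels (left) and the log2 ratio of RANKL over control (right). Grey points are spots, and the black diamond and bar are their mean and SD. The 3 tumors are apart in level with no overlap of spots, whereas their ratios overlap and include 0.

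Among the surface receptors, Itgb3, the integrin beta 3 chain of the vitronectin receptor with which osteoclasts attach to bone, was clearly expressed. Its control intensity was 4407, 1065.5 and 5189 over 70, 38.5 and 75.5, and with RANKL it was 2080, 1846 and 2533 over 35, 70 and 40. Normalized, the control level was 11.71, 10.58 and 11.83 (mean 11.37 ± 0.69, SD, n = 3) and the RANKL level 11.56, 10.42 and 11.65 (mean 11.21 ± 0.68). Both cultures of tumor 2 were the lowest, and the treated culture was below its control in each tumor. The log2 ratios of −0.15, −0.16 and −0.18 were close to each other (SD 0.02), and 1.22% of the genes tested had a smaller SD. Their mean was −0.16 (SE 0.07, 95% interval −0.31 to −0.0087), or 0.894-fold, and the adjusted p was 0.686. Under the 18 alternatives the log2 ratio of Itgb3 lay between −0.34 and −0.14 and the adjusted p between 0.282 and 1.00. Its other probe gave −0.27, 0.08 and −0.16, and so did not share the sign in tumor 2.

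Oscar encodes a collagen receptor that provides the costimulatory calcium signal to osteoclast precursors. Its single annotated start has 3 NFAT cores within 250 bases, the most among the starts counted here (GRCm38.p6, chr7:3616158-3616407, minus strand, capitals as for Acp5).
Oscar: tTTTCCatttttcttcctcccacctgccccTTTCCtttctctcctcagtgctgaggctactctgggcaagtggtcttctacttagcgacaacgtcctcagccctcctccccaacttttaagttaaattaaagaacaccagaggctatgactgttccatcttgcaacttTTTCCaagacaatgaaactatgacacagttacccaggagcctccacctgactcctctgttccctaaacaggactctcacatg

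The Oscar probe was dim but well above background in all 6 channels. Control intensities were 107, 45.5 and 123.5 over 69, 33 and 74, and RANKL intensities 48, 115 and 48.5 over 31, 72 and 34. The normalized control level was 6.55, 6.50 and 6.67 (mean 6.57 ± 0.09, SD, n = 3) and the RANKL level 6.53, 6.60 and 6.52 (mean 6.55 ± 0.04). The levels of both conditions overlapped, and neither tumor nor treatment set them apart. The log2 ratios were −0.01, 0.10 and −0.15, so that the treated culture was the higher one only in tumor 2, where it carried Cy5. Their mean was −0.02 (SE 0.08, 95% interval −0.19 to 0.15, adjusted p = 0.972), and the background offset of the normalization compresses ratios at such levels. Calcr, the calcitonin receptor gene, was well above background in 0 of 6 channels. Its control intensities of 70, 27 and 71 were at or below the local backgrounds of 71, 36 and 74, and with RANKL they were 27, 65 and 30 against 32, 71 and 37. The normalized log2 intensity of Calcr was 5.96, 5.90 and 5.95 in the controls, where the lowest signal of any probe well above background was 6.02, 6.06 and 6.01. With RANKL, Calcr was at 5.97, 5.88 and 5.99 and that lowest signal at 6.05, 5.88 and 5.92, so that Calcr did not lie below it in tumors 2 and 3, although its own spot was not flagged as well above background.

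**Figure D3:**
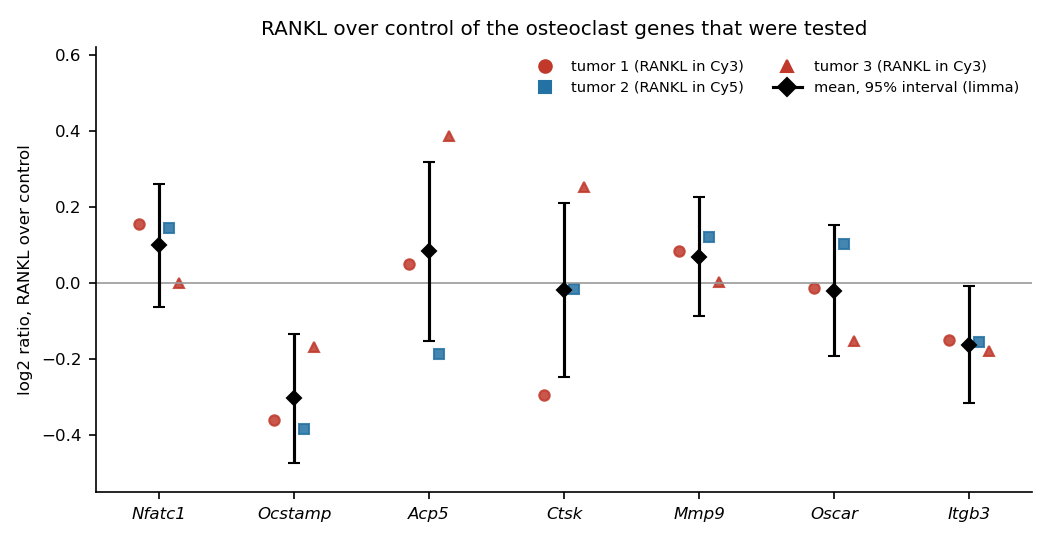
Log2 ratio of RANKL over control for the 7 osteoclast genes tested (y axis). Circles, squares and triangles are tumors 1, 2 and 3, in red where RANKL was labeled with Cy3 and in blue where it was labeled with Cy5, and the diamond and bar are the mean and its 95% interval by limma. Ocstamp and Itgb3 lie below 0 in all 3 tumors, and the interval of Ocstamp reaches from −0.47 to −0.13.

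The order of levels between tumors was shared by several of these genes. In the mean of both channels, Ctsk, Mmp9 and both Itgb3 probes had tumor 2 as the lowest and tumor 3 as the highest, and both Acp5 probes had tumor 2 as the lowest and tumor 1 as the highest. These orders were the same without the normalization between arrays, and most macrophage markers were lowest in tumor 2 too, as given below. Itgb3 spanned 2.36-fold between tumors and Acp5 1.61-fold, while the genes well above background in all channels had a median range of 0.28 log2 units. Oscar spanned 1.04-fold, and the Nfatc1 probes 1.04-fold and 1.28-fold. Fewer cells that express a gene and less of its RNA per cell cannot be told apart in these bulk cultures.

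Over the 6 channels, named genes with the most similar pattern were taken by Euclidean distance between log2 levels after subtraction of each probe's mean, among 13669 others. For Itgb3 they were Tcfl5 (0.08), Tyrobp (0.12) and Tpm2 (0.13), where the median distance to Itgb3 was 1.45. For Mmp9 they were Foxj1, Thy1 and Lgals9 at 0.30 to 0.32 (median 2.08), and for Ctsk they were Sema7a, H2-Ab1 and Twist2 at 0.28 to 0.30 (median 1.79). Acp5 was nearest to Abhd4, Zkscan1 and Parp6 (0.13 to 0.17) and Ocstamp to N4bp2l1, Sfrp2 and Ctsd (0.14 to 0.16). The genes nearest to the pattern of the Nfatc1 probe used included Vmn2r4 and Slc25a48, and those nearest to Oscar were Armc8, Gnl2 and Hps3, all within 0.06. With 6 channels from 3 tumors, nearness of this kind means that levels ran in parallel, and for Oscar and this Nfatc1 probe, whose levels varied little, that the other genes varied little too (median distance 0.42 each).

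Macrophages can express several of the 10 genes, so their markers were set beside them. Of 15 macrophage markers, 13 were well above background in all 6 channels and Cx3cr1 in none, and the brightest was Cd14, which other cells also express. Summed over the 14 tested, the normalized linear intensity was 26453, 15586 and 17460 in the controls and 34349, 15349 and 17152 with RANKL. Cd14 made up 17942 of the sum in the control of tumor 1. Without Cd14, which was set apart after its values were seen, the sum was 8510, 7906 and 9354 in the controls and 7838, 8580 and 8710 with RANKL, with Itgam as the largest part (4722, 5407 and 5546 in the controls). Gene by gene, in a count also made after the levels were seen, 13 of the 14 had their lowest level in tumor 2, all but Itgam, as did 5 of the 7 osteoclast genes tested, 5 of 9 fibroblast and 5 of 8 epithelial markers, and 29.9% of all genes tested. By limma 0 of the 14 passed the threshold, and their median log2 ratio was −0.0017. Like Ocstamp and Itgb3, 3 of the 14 were lower with RANKL in all 3 tumors (13.3% of all genes tested) and 0 were higher in all 3 (14.2%). These were C1qc with a mean log2 ratio of −0.25 (95% interval −0.44 to −0.05), C1qa with −0.23 (−0.41 to −0.06) and Cd68 with −0.22 (−0.39 to −0.06), each with an adjusted p of at least 0.544. The summed intensity of the 8 epithelial markers, led by Krt18, was 342008, 268424 and 463805 in the controls and 285053, 291676 and 345359 with RANKL, and all 8 were well above background in all channels, which fits the labeled mammary tumor culture. Their median log2 ratio was 0.16, −0.17 and −0.09 in tumors 1, 2 and 3. Fibroblast markers, with all 9 above background and Col1a1 the brightest, summed to 9865, 4783 and 18898 in the controls and 8173, 5106 and 18534 with RANKL, a sum in which the brightest genes count most and from which single markers differ in the order of tumors. Of the other marker lists, 2 of 5 for platelets and megakaryocytes, 3 of 5 for T cells, 2 of 5 for endothelium and 6 of the 9 neutrophil markers with a probe were above background in all channels, with median log2 ratios of −0.13, 0.0030, −0.0040 and −0.11. Of the 2 platelet markers, Pf4 was lower with RANKL in all 3 tumors, like Itgb3, with a mean log2 ratio of −0.31 (95% interval −0.57 to −0.05, adjusted p = 0.616), Ppbp had 0.05, and both had their lowest level in tumor 2, also like Itgb3. Itga2b, the partner of Itgb3 in platelets, was not well above background in any channel. Among the neutrophil markers tested, S100a8, S100a9, Camp and Csf3r had their highest level in tumor 2 in the mean of both channels. Elane and Ltf had their lowest level there. The part of these cell types in the levels of the osteoclast genes was not tested.

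Upstream of the osteoclast genes, the RANK transcript Tnfrsf11a, named here outside the rule for named genes, was well above background in all 6 channels. It had a log2 ratio of 0.06 (SE 0.07). The RANKL transcript Tnfsf11, also outside that rule, was at 6.13, 8.82 and 6.24 in the controls of tumors 1, 2 and 3. In the treated cultures it was at 6.18, 8.79 and 6.45. It was well above background in 2 of the 3 controls and all 3 treated cultures. The bearing of this difference between tumors on the ratios was not tested. Of 23 genes of RANK, NF-kB and AP-1 signaling, 22 were tested and 0 passed the threshold in either direction, with a median log2 ratio of 0.12 and the largest values for Nfkbia (0.77), Nfkb2 (0.62), Relb (0.55) and Traf2 (0.53). By tumor this median was 0.25, 0.03 and 0.14. Leaving out tumor 1 gave 0.06, and over the alternatives it lay between 0.04 with median centering and 0.19 with processed signals. Of 12 NF-kB response genes, some of them also in that list, 11 were tested. Of these, 9 had a ratio above 0 in all 3 tumors, against 2 of the 7 osteoclast genes and 14.2% of all genes tested. The list was chosen with earlier results of these data known, so this count is not an independent test. The median log2 ratio of the 11 was 0.49, and it was 0.71, 0.31 and 0.22 in tumors 1, 2 and 3. The largest were Nfkbia, Nfkbie (0.75), Traf1 (0.70) and Nfkb2, and 0 of the 11 passed the threshold by limma, 4 by rank product (0.354% of all genes tested) and 8 with a dye term (1.38%). Without tumor 2, 8 passed, where 597 of all genes were called higher and 885 lower. With an intensity trend 2 passed, where 15 and 30 were called, and 0 passed under the other alternatives. The highest log2 ratio of an osteoclast gene, 0.10 for Nfatc1, was below that median.

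The other osteoclast lists had medians between −0.09 and 0.05, with Cd47, Trem2 and Id2 farther from 0 than Ocstamp. Of 14 genes tested of costimulatory receptors and calcium-NFAT signaling, 11 had a mean below 0 (50.3% of all genes tested) and 5 were below 0 in all 3 tumors (13.3%), with a median log2 ratio of −0.09 and the largest values for Trem2 (−0.40), Fcer1g (−0.30), Tyrobp (−0.16) and Plcg2 (−0.13). Of 15 genes for acid secretion and the ruffled border, all tested, 6 were below 0 in all 3 tumors (13.3% of all genes tested) and the median was −0.07, with Atp6v1a and Atp6v0d1 at −0.25 each and Atp6v0a1 and Plekhm1 at −0.18 each. The 8 tested of the other osteoclast transcription factors and repressors had a median of −0.02, with values of −0.33 for Id2, −0.09 for Bcl6 and 0.06 for Mitf. The 10 tested of the other surface and fusion genes had a median of 0.05, led by Cd47 (0.48), Cd44 (0.16), Adam12 (−0.15) and Tspan7 (−0.13). By limma 0 genes of these 4 lists passed the threshold, although the 95% intervals of Cd47 (0.19 to 0.77), Trem2 (−0.66 to −0.14), Id2 (−0.52 to −0.14), Fcer1g (−0.47 to −0.13), Atp6v1a (−0.41 to −0.09), Atp6v0d1 (−0.41 to −0.08) and Atp6v0a1 (−0.35 to −0.02), which are not adjusted for the number of genes, leave out 0, as they do for 7.16% of all genes tested.

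**Figure D4:**
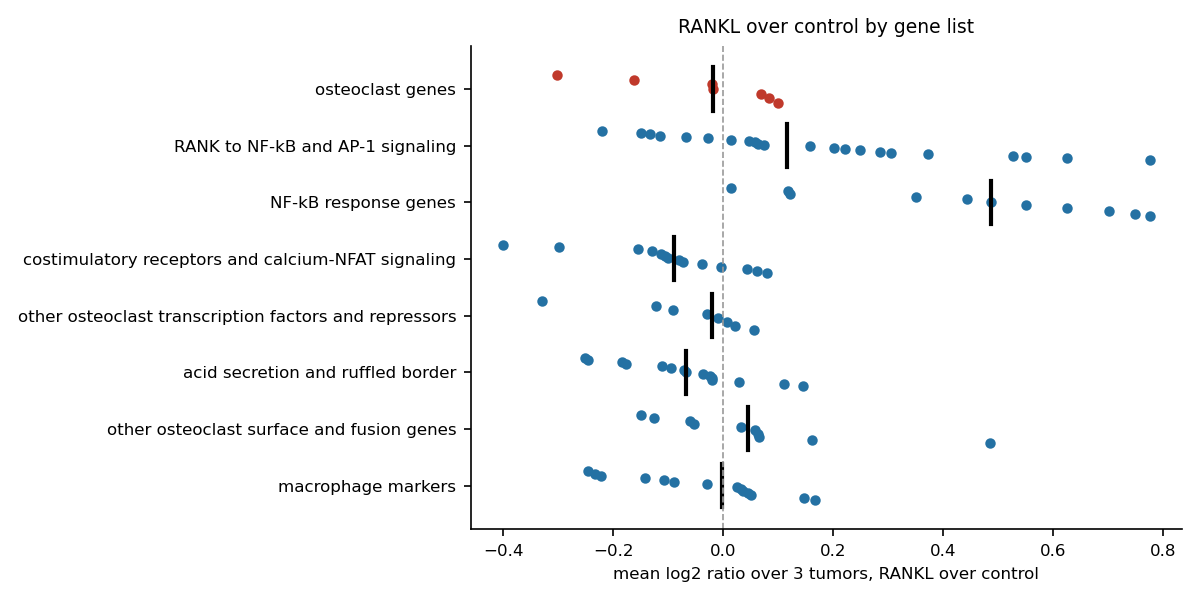
Mean log2 ratio of RANKL over control over 3 tumors (x axis) for the tested genes of 8 lists (rows), with 1 point per gene, a black bar at the median of each list and a dashed line at the median of all genes tested. The osteoclast genes in red lie between −0.30 and 0.10, and the NF-kB response genes between 0.01 and 0.77.

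Across all 21728 genes tested, which are not independent replicates, the log2 ratios of tumors 1 and 3 had a Pearson's r of 0.452, and those of tumor 2 had −0.110 with tumor 1 and −0.106 with tumor 3. Arrays with the same dye order were thus more alike than arrays with opposite orders. Of the osteoclast genes, Acp5 by the probe used and Oscar had a ratio in tumor 2 of opposite sign to both other tumors, as did the other Itgb3 probe, whereas the second Acp5 probe and Ctsk were below 0 in tumors 1 and 2 and above it in tumor 3. Ocstamp, Mmp9, both Nfatc1 probes and the Itgb3 probe used for the gene had the same sign in both dye orders.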

How the data were processed

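The authors read spots with Agilent Feature Extraction 10.7.3.1 and deposited median spot and local background intensity per dye, processed intensity, and log10 ratios of Cy5 over Cy3 processed intensity. They also deposited normalized log2 ratios. The methods report each condition over its control, whereas these columns, set against the scanner values over at least 59082 spots, were Cy5 over Cy3 (r with RANKL over control −0.881, 0.874 and −0.880 in tumors 1, 2 and 3), with column medians of 0.0024, −0.0011 and 0.00037. For normalization the methods name loess by intensity and position within arrays, and Aquantile between them. The design named mean intensities, but median intensities were read in the files and used.

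With R 4.3.3 and limma 3.58.1, background was corrected by normexp (offset 50), and log ratios were normalized by intensity loess, spatial loess (span 0.1) and Aquantile. These steps follow the methods of the study, which name them without an offset or a span. Control spots and outlier spots (204, 195 and 223) were left out of the values and spots of a probe averaged. A probe was well above background in a channel if over 0.5 of its spots carried the software's flag for it. Accessions without version were matched to the RefSeq table of GRCm38.p6 (28026 of 55681 probes, 21154 symbols), and others kept their accession. The brightest kept probe stood for a gene. Log2 ratios were fitted by lmFit, then moderated by eBayes (residual degrees of freedom 2, prior 6.93), with Benjamini-Hochberg adjustment over all genes tested. The labels pair the cultures, since each array holds both from 1 tumor.

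The share of probes well above background was 54.5% to 56.2% per channel, and the median spot intensity was 42 to 45 in Cy3 (background 31 to 36) and 96.5 to 100.5 in Cy5 (background 70 to 73). Of each list, at most 4 genes were named, by the largest mean log2 ratio in size among those tested if none passed the threshold, and a few genes that this rule or the rule for similar patterns names are not reported here. Members and lists were chosen with earlier results of these data known. The alternatives, whose effects are given at the end, concern background correction, normalization, filter, probe summary, dye, test, pairing and each tumor left out. No promoter is shown or counted for Nfatc1, Dcstamp, Ocstamp, Atp6v0d2, Mmp9 and Itgb3, and proteins were not analysed here.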

Additional observations from a re-analysis of the deposited data

How the results depend on the processing

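Of 18 alternatives, most changed 1 choice. Agilent's processed signals and the authors' log2 ratios each replaced several processing steps together. Another, chosen after the data were seen, left Cd14 out of the summed macrophage markers, and the sum in the control of tumor 1 was then 8510 instead of 26453. Genes past the threshold, 1 higher and 5 lower with RANKL, were 0 and 0 under 3 settings, namely Agilent's processed signals, median centering instead of loess, and no pairing by tumor (no replicate block). They were 6 and 11 with an offset of 10, 6 and 12 without background correction, 129 and 171 with a dye term, 32 and 45 by rank product, 15 and 30 with an intensity trend, 0 and 3 without a filter on dim probes, 0 higher with probes above background in all 6 channels, and 2 higher with the authors' log2 ratios. With each tumor left out they were 0 to 597 higher and 2 to 885 lower, the most without tumor 2. The causes were not tested.

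Among the osteoclast genes, 0 passed under 17 alternatives and 1, Ocstamp, with the dye term. Of 126 values of the 7 genes, 6 changed sign, all of genes with an interval that includes 0. Acp5 was −0.13 and Mmp9 −0.16 with median centering, which moved the median of all genes to −0.11, so that they were −0.01 and −0.05 relative to it. With each tumor left out, Acp5 ranged from −0.069 to 0.22, Ctsk from −0.15 to 0.12 and Oscar from −0.082 to 0.045, and Oscar was 0.011 with a dye term. The causes were not tested. Without tumor 1 the median of the NF-kB response genes was 0.31.

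Signal over background limits Calcr, Dcstamp and Atp6v0d2. For Calcr a ratio could not be measured on any array, and for Dcstamp and Atp6v0d2 both cultures were measured in tumor 3 alone. The offset compresses the ratios of dim probes, most of all Oscar and, in tumor 2, Mmp9, but also Ocstamp and Nfatc1. With an offset of 10 the log2 ratios were −0.40 for Ocstamp, 0.13 for Nfatc1, 0.14 for Mmp9 and −0.04 for Oscar, while Ctsk was at −0.02. With processed signals, which have no such offset but differ in other steps too, the log2 ratios were 0.18 for Nfatc1, 0.23 for Mmp9, −0.12 for Oscar and −0.44 for Ocstamp.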
